A study of Homo sapiens with 4 samples.

Results

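The mitochondrial ribosomal protein genes encode the protein part of the mitoribosome. They were taken as the protein-coding genes of the GENCODE annotation on GRCh37 whose symbol is MRPL or MRPS followed by a number and an optional letter. This rule found 78 of 20176 protein-coding genes, 49 with an MRPL and 29 with an MRPS symbol. The symbols were checked against the known structure of the particle. MRPS30 and MRPS18A carry small-subunit symbols but their proteins sit in the large subunit, and MRPS36 encodes a component of the oxoglutarate dehydrogenase complex, which is not part of the mitoribosome. The genes therefore comprised 51 of the large subunit, 26 of the small subunit and 1 of neither.

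The mitoribosome translates the few messages encoded by mitochondrial DNA, which specify core subunits of the oxidative phosphorylation complexes. All of its proteins are encoded in the nucleus, made in the cytosol and imported, so its assembly depends on many nuclear promoters scattered over the chromosomes. H3K4me3, trimethylation of lysine 4 of histone H3, marks the nucleosomes that flank the transcription start sites (TSS) of active and poised promoters. Genes of basic cell function such as these usually carry it in most cell types.

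H3K4me3 was profiled by native ChIP-Seq, in which chromatin is cut into nucleosomes with micrococcal nuclease without crosslinking, in MDA-MB-231, an established human triple-negative breast cancer line. There was 1 library each of untreated cells, cells treated with 1 μM Tat-SID, cells treated with 2.5 μM Tat-SID and input DNA. Tat-SID is a decoy peptide made of the SIN3 interaction domain (SID) of MAD joined to a Tat sequence that carries it into cells, and it occupies the PAH2 domain through which the SIN3 corepressor binds its partners. The labels and the ChIP methods give no treatment time. For the decrease in H3K4me3, the Discussion of the study gives 3 days of Tat-SID treatment. The untreated cells received no control peptide according to those sources, so the peptide sequence and the act of peptide treatment cannot be told apart. The lists analysed hold 141 regions with reduced H3K4me3 at 1 μM, with a median length of 8599 bp, 2063 with reduced H3K4me3 at 2.5 μM, with a median length of 4949 bp, and 3 with increased H3K4me3 at 2.5 μM. Increased regions at 1 μM were not analysed here. Both treated libraries were compared with the same untreated library, and the lists give positions without read numbers, fold changes or FDR values. The size of a change is therefore unknown, the read numbers of the libraries were not analysed here, and with 1 library per condition no difference between conditions was tested. Confidence intervals below cover counting error over genes only.

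The first question was which mitochondrial ribosomal protein genes lost H3K4me3 at each dose. A gene was counted as reduced when a listed region lay within 3 kb of its TSS. At 1 μM Tat-SID, 0 of 78 genes were reduced, which allows a share of up to 3.85%. The share over all protein-coding genes at this dose was 0.496%, so that a count of 0 among 78 genes is not a result particular to them. At 2.5 μM, 9 of 78 genes were reduced, or 11.5% (exact Clopper-Pearson 95% interval 5.41% to 20.8%), and the share over all protein-coding genes was 9.5%. The interval holds the share of all genes, and the count is close to that background. The background takes in every annotated protein-coding gene, whether or not it carried H3K4me3 in untreated cells, which the lists do not show. A comparison with genes that carried the mark was not tested. No gene was on both lists, and none lay within 10 kb of a region with increased H3K4me3.

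The reduced genes were MRPL14, MRPL32, MRPL33, MRPL47, MRPL51, MRPL57 and MRPS30 of the large subunit and MRPS18B and MRPS18C of the small subunit. The region covered the TSS itself in each of the 9, and it did so in 96.7% of the 1917 protein-coding genes reduced at this dose. The count was thus not sensitive to the width of the window: every reduced gene had a distance of 0, and the nearest gene outside was 11.6 kb from a region.

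**Figure D1:**
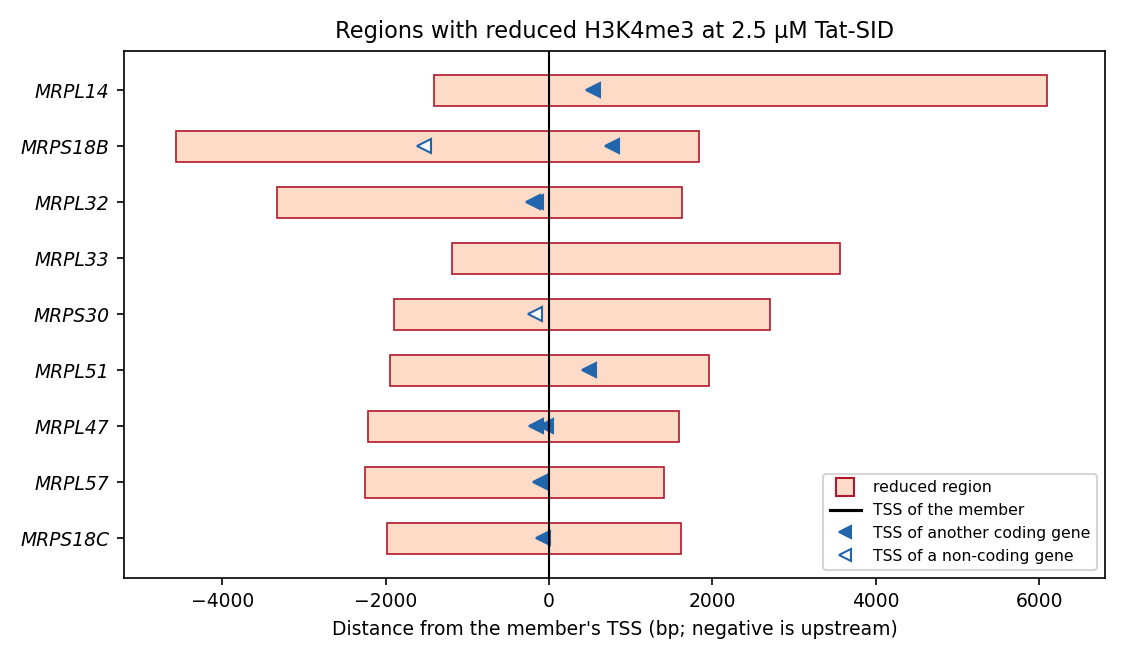
Regions of the 2.5 μM Tat-SID list at the 9 reduced mitochondrial ribosomal protein genes, drawn as bars by distance from the TSS of the gene (x axis, bp, negative is upstream), in order of region length. Filled triangles mark the TSS of other protein-coding genes, found in 7 of the 9 regions, and open triangles those of non-coding genes; every triangle stands for a gene on the opposite strand.

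Among the large subunit genes with a bacterial counterpart, MRPL14 (ENSG00000180992) had the longest region. Its protein lies at the interface between the subunits, where it binds an anti-association factor during assembly. The region, chr6:44089101-44096599, was 7499 bp long and reached 1410 bp upstream and 6088 bp downstream of the TSS on the minus strand. It contained exon 1 of the 3 exons of the canonical transcript and 43.5% of the gene. Of all regions reduced at 2.5 μM, 87.3% were shorter. The TSS of TMEM63B, which encodes a membrane channel protein, lay 538 bp inside the MRPL14 gene on the opposite strand and within the same region.

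MRPL32 (ENSG00000106591) encodes a protein that is cut to its mature form by the m-AAA protease of the inner membrane before it joins the large subunit. Its region, chr7:42968651-42973599, was 4949 bp long and reached 3324 bp upstream and 1624 bp downstream of the TSS on the plus strand, and it contained exon 1 of 3. Upstream and on the opposite strand it also contained the TSS of PSMA2, a subunit of the 20S proteasome, 191 bp away, and that of a further protein-coding gene without a symbol, 162 bp away.

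MRPL33 (ENSG00000243147), a small protein with a bacterial counterpart, was the 1 reduced gene whose region held no other TSS of any gene type. The region, chr2:27993401-27998149, was 4749 bp long and reached 1183 bp upstream and 3565 bp downstream of the TSS on the plus strand. It contained exons 1, 2 and 3 of the 4 exons of the canonical transcript. MRPS30 (ENSG00000112996), which has no bacterial counterpart, was the only other gene whose region held no further protein-coding TSS. Its region, chr5:44807151-44811749, was 4599 bp long, reached 1898 bp upstream and 2700 bp downstream of the TSS on the plus strand and contained exons 1 and 2 of 5. The long non-coding RNA gene MRPS30-DT started 170 bp upstream on the opposite strand.

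Because no other protein-coding gene starts in their region, the promoters of MRPL33 and MRPS30 are shown, from 250 bases before to 50 bases after the TSS in GRCh37, 5′ to 3′ on the strand of the gene. They are chr2:27994334-27994633 on the plus strand and chr5:44808799-44809098 on the plus strand. Capitals mark an ETS family motif in MRPL33 and a YY1 motif in MRPS30, letter matches that are taken up below.
MRPL33: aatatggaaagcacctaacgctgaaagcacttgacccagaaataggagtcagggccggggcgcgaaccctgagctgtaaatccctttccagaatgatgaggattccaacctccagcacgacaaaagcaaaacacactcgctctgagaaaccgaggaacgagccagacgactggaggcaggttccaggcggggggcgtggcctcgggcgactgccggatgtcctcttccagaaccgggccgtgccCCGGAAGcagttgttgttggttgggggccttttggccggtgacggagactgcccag
MRPS30: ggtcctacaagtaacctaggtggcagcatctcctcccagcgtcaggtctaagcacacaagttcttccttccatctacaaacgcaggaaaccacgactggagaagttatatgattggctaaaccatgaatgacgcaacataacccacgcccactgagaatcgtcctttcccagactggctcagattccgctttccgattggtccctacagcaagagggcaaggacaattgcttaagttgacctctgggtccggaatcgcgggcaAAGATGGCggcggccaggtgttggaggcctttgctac
The ETS motif began at position -6 of MRPL33 and the YY1 motif at position 14 of MRPS30, counted with the TSS as 1. Neither promoter held a second match to any of the 5 motifs searched.

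MRPL47 (ENSG00000136522) encodes the counterpart of bacterial protein L29, near the exit of the peptide tunnel, and shared its region with other genes. The region, chr3:179320851-179324649, was 3799 bp long, with 2212 bp upstream and 1586 bp downstream of the TSS on the minus strand, and contained exon 1 of 7. NDUFB5, a subunit of respiratory complex I, started 41 bp upstream on the opposite strand, and a protein-coding gene without a symbol 158 bp upstream. A single region thus covered the starts of a mitoribosomal and an oxidative phosphorylation gene.

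MRPL51 (ENSG00000111639) and MRPL57 (ENSG00000173141) encode large subunit proteins that bacteria lack, and both are short genes. The MRPL51 region, chr12:6601051-6604949, was 3899 bp long and covered the whole of the gene, 1956 bp with 3 exons on the minus strand. It reached 1942 bp upstream of the TSS and also held the TSS of NCAPD2, a condensin subunit, 485 bp downstream on the opposite strand. The MRPL57 region, chr13:21748551-21752199, was 3649 bp long and reached 2246 bp upstream and 1402 bp downstream of the TSS on the plus strand. It covered exon 1, part of exon 2 of 2 and 57.8% of the gene. SKA3, a kinetochore protein gene, started 106 bp upstream on the opposite strand.

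Both reduced small subunit genes with an MRPS symbol belong to the MRPS18 family, in which 3 human genes encode relatives of bacterial protein S18. The MRPS18B (ENSG00000204568) region, chr6:30581051-30587449, was 6399 bp long and the second longest. It lay mainly upstream, with 4566 bp before and 1832 bp after the TSS on the plus strand, and contained exons 1 and 2 of 7. It also held the TSS of PPP1R10, a regulator of protein phosphatase 1, 772 bp downstream on the opposite strand, and that of a miRNA gene 1535 bp upstream. The MRPS18C (ENSG00000163319) region, chr4:84375101-84378699, was the shortest at 3599 bp, with 1984 bp upstream and 1614 bp downstream of the TSS on the plus strand, and contained exons 1 and 2 of 6. The DNA helicase gene HELQ started 77 bp upstream on the opposite strand. The third family member, MRPS18A, whose protein is in the large subunit, had no region nearer than 108 kb.

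The promoters of the 4 reduced genes with a protein-coding start on the other strand within 250 bases upstream were chosen after their values were seen, to show how closely the opposed starts lie. MRPL47 (chr3:179322388-179322687) is read on the minus strand, and MRPS18C (chr4:84376835-84377134), MRPL57 (chr13:21750547-21750846) and MRPL32 (chr7:42971725-42972024) on the plus strand of GRCh37. Capitals mark matches to the NRF1, ETS family, YY1, E-box and SP/KLF motifs, of which MRPL57 holds none.
MRPL47: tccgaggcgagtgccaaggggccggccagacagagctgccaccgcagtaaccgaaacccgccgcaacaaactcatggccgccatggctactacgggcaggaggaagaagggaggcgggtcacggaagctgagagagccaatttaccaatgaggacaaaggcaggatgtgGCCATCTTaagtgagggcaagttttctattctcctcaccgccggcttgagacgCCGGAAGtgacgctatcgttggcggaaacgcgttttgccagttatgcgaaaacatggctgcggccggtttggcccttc
MRPS18C: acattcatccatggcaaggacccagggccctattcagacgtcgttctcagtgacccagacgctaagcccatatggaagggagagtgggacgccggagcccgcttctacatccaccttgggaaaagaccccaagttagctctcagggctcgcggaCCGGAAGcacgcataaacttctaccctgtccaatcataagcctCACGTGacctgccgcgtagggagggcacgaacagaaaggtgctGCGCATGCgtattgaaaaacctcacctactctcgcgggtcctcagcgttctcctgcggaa
MRPL57: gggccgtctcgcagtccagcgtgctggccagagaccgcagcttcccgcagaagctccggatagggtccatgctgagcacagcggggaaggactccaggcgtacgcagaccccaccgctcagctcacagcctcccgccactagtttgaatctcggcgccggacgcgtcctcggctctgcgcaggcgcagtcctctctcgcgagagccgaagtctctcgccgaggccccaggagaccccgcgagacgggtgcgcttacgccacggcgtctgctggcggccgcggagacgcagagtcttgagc
MRPL32: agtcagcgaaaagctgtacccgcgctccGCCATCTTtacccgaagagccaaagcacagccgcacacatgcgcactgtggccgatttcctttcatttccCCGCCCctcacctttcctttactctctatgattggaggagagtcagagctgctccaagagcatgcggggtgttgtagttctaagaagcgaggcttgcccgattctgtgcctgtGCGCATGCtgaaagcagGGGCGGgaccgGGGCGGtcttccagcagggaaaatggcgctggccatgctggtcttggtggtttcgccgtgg
In MRPL47 the YY1 letters began at position -81 on the minus strand of the gene and the ETS letters at -28 on its plus strand, on either side of the NDUFB5 start. In MRPS18C an ETS match began at -96, an E-box at -53 and an NRF1 match at -10, so the HELQ start fell between the ETS match and the E-box. In MRPL57 the SKA3 start lies 106 bp upstream. MRPL32 held a YY1 match at -222, an NRF1 match at -39 and SP/KLF matches at -152, -22 and -11, and both opposed starts lay between the SP/KLF match at -152 and the YY1 match at -222.

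A shared region does not show which of its genes lost H3K4me3, since the mark covers nucleosomes on both sides of paired starts. In 7 of the 9 reduced genes the region also held the TSS of another protein-coding gene, and in 8 that of a gene of any type. Over the 1853 protein-coding genes whose TSS was covered at 2.5 μM, 39.6% shared their region with another protein-coding TSS. With 1 mitochondrial ribosomal protein gene in each region, the 9 genes correspond to 9 separate regions on 8 chromosomes.

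The regions at the 9 genes ranged from 3599 to 7499 bp with a median of 4599 bp. The median was 5149 bp over the 1462 regions reduced at 2.5 μM that held a protein-coding TSS. It was 5099 bp over the 1119 regions with a single such TSS and 5349 bp over the 343 with more. The regions of MRPL14 and MRPS18B were longer than the median of the whole list, and that of MRPL32 equalled it. The position around the TSS also varied. Regions extended farther downstream than upstream in 4 of the 9 genes, against 77.4% of all covered protein-coding genes. These were MRPL14, MRPL33, MRPS30 and, with 1956 against 1942 bp, MRPL51, whose region was nearly centred. From the start of the canonical transcript the MRPL51 region reached 2521 bp upstream and 1377 bp downstream, and the count was 3 of 9. The medians at the 9 genes were 1984 bp upstream and 1832 bp downstream, compared with 1744 and 3200 bp over the 1853 covered genes. Covered genes that shared their region had medians of 2421 bp upstream and 2598 bp downstream (734 genes), and those alone had 1391 and 3546 bp (1119 genes). MRPL33 and MRPS30 were alone in their regions and were among the 3 genes whose regions extended farther downstream from either start.

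Reduced genes were found in both subunits. In the large subunit 7 of 51 genes were reduced, or 13.7% (95% interval 5.7% to 26.3%), and in the small subunit 2 of 26, or 7.69% (0.946% to 25.1%). These intervals overlap and both hold 9.5%. The subunit counts cover genes with an MRPL or MRPS symbol only. DAP3 and PTCD3, small subunit genes with other symbols, were also reduced and are taken up below. The small subunit count would be higher with them, so its lower share holds for the symbol rule only. Genes whose proteins have a bacterial counterpart were reduced in 6 of 47 cases (12.8%, 4.83% to 25.7%) and those without in 3 of 31 (9.68%, 2.04% to 25.8%). No difference by subunit or by bacterial origin can be read from counts of this size.

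**Figure D2:**
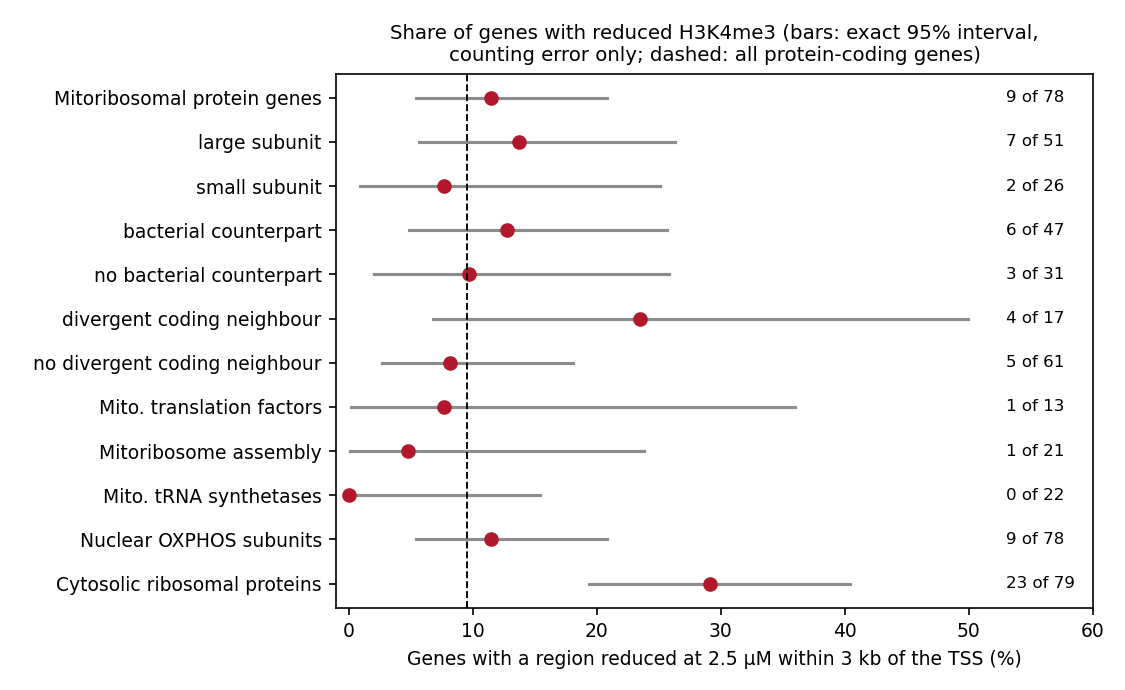
Share of genes with a region reduced at 2.5 μM Tat-SID within 3 kb of the TSS (x axis, %) for the mitochondrial ribosomal protein genes, their subgroups and related gene lists (y axis). The subunit groups leave out mitoribosomal proteins with other symbols, among them the reduced small subunit genes DAP3 and PTCD3. Points are shares, bars exact 95% intervals for counting error over genes, and the dashed line is the 9.5% of all protein-coding genes; of the lists shown, the interval of the cytosolic ribosomal proteins, with 23 of 79, is the one that lies wholly to the right of the line.

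The 69 genes that were not reduced were mostly far from any region. MRPL24 came nearest, with a TSS 11.6 kb and the start of an alternative transcript 8.22 kb from a region of 5149 bp that covered the starts of ISG20L2 and METTL25B. MRPS14 followed at 20.6 kb, or 12.0 kb from its nearest transcript start, beside a region at CACYBP, and MRPL48 at 26.1 kb, beside a region at RAB6A. MRPL18 was next, 59.2 kb from a region at WTAP. Of the 69 genes, 0 lay within 10 kb and 8 within 100 kb of a region, and the median distance was 527 kb. The farthest were MRPL20 at 6733 kb, MRPL41 at 6732 kb and MRPL12 at 4935 kb. At 1 μM the nearest gene was MRPL42, 85.5 kb from a region at NUDT4, and no other gene had a region within 100 kb. Among the 9 genes reduced at 2.5 μM, MRPS18C was nearest to a region of the 1 μM list, at 340 kb.

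**Figure D3:**
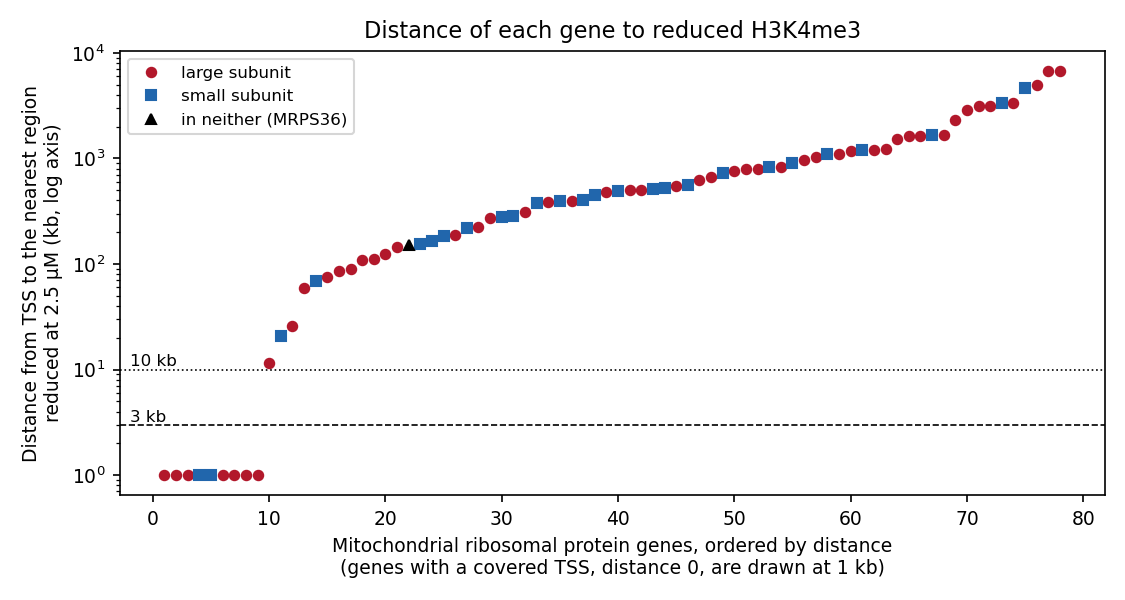
Distance from the TSS to the nearest region reduced at 2.5 μM Tat-SID (y axis, kb, log axis) for the 78 mitochondrial ribosomal protein genes in order of distance (x axis), by subunit. The 9 reduced genes have a distance of 0 and are drawn at 1 kb; there is no gene between them and MRPL24 at 11.6 kb.

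The genes are spread over 21 chromosomes, and the 9 reduced genes lay on 8 of them, 2 on chromosome 6 and 1 each on chromosomes 2, 3, 4, 5, 7, 12 and 13. These 8 chromosomes carried 34 of the 78 genes. The other 13 chromosomes, set apart because they had no reduced gene, carried 44 genes. These included 8 genes on chromosome 1, 8 on chromosome 17, 7 on chromosome 11 and 4 on chromosome 19. The 0 reduced genes there follow from this split, which is no result about grouping by chromosome. The share of all protein-coding genes reduced at 2.5 μM differed between chromosomes as well. It was 17.3% on chromosome 4, 17.0% on chromosome 6 and 15.8% on chromosome 5, and 6.56% on chromosome 17, 7.44% on chromosome 11 and 2.7% on chromosome 19. The counts per chromosome were too small to be compared with these shares. No mitochondrial ribosomal protein gene was reduced on chromosomes 14 (1 gene, 15.6%), 1 (8 genes, 11.2%), 10 (2 genes, 10.9%) and 8 (3 genes, 10.6%). On chromosome 7, with a share of 8.68%, 1 of 4 was. Adding up the chromosome's share over the 78 genes gave 7.81, beside the 9 genes reduced.

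Pairs of opposed starts were common among the mitochondrial ribosomal protein genes. A protein-coding neighbour that started on the other strand at most 1 kb upstream, called a divergent neighbour here, was present at 17 of 78 genes (21.8%), against 8.45% of all protein-coding genes. With such a neighbour, 4 of 17 genes were reduced, or 23.5% (95% interval 6.81% to 49.9%), and 21.4% of all protein-coding genes with a divergent neighbour were. Without it, 5 of 61 were reduced, or 8.2% (2.72% to 18.1%), and 8.4% of all such protein-coding genes were. In each class the share of mitochondrial ribosomal protein genes stood close to that of its background. MRPL14, MRPL51 and MRPS18B share their region with a gene that starts inside them and are not counted as divergent by gene starts. By the starts of the canonical transcripts, a definition added after the data were seen, their partners lay upstream, TMEM63B by 102 bp, NCAPD2 by 840 bp and PPP1R10 by 597 bp. Then 26 genes had a divergent neighbour and 7 of them were reduced (26.9%, 11.6% to 47.8%), against 22.5% of all protein-coding genes of this class. When starts on the other strand within 1 kb on either side were taken, also added after the data were seen, 7 of 27 genes were reduced (25.9%, 11.1% to 46.3%), against 20.1% of all protein-coding genes with such a neighbour. Of the remaining 51 genes MRPL33 and MRPS30 were reduced (3.92%, 0.478% to 13.5%), against 7.87% of all protein-coding genes without one.

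Most genes with a divergent neighbour by gene starts had no reduced region, 13 of the 17. MRPL46 and MRPS11 are divergent to each other, with 63 bp between their starts. The other 11 are given with their partner and the distance between the starts. MRPL49 lies 6 bp from FAU, a cytosolic ribosomal protein gene, MRPL27 lies 13 bp from EME1, and MRPL21 lies 28 bp from IGHMBP2. MRPL36 lies 41 bp from the complex I subunit gene NDUFS6, the same spacing as between the gene starts of MRPL47 and NDUFB5. MRPL52 lies 59 bp from SLC7A7, MRPL10 lies 93 bp from LRRC46, and MRPL30 lies 94 bp from MITD1. MRPL18 lies 109 bp from the chaperonin gene TCP1, and MRPS12 lies 181 bp from SARS2, the mitochondrial seryl-tRNA synthetase gene. MRPL50 lies 233 bp from ZNF189 and MRPL54 lies 990 bp from APBA3. A close opposed start was thus present at genes with and without a reduced region.

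Promoter composition was compared over 1 kb on each side of the TSS. GC content had a median of 49.5% in the reduced genes, with 8 of the 9 from 44.2% in MRPL47 to 52.7% in MRPL51 and MRPL14 at 66.2%, and of 52.0% in the other 69, which ranged from 40.6% to 71.5%. The observed number of CpG dinucleotides divided by that expected from base content, the CpG ratio, had a median of 0.691 in the reduced genes, from 0.645 in MRPL47 to 0.971 in MRPL57, and of 0.679 in the others, from 0.304 to 0.94. The ranges of both measures overlapped between reduced and other genes. A CpG promoter, in which GC content exceeds 50% and the CpG ratio exceeds 0.6, was present in 40 of 78 genes (51.3%) and in 46.8% of all protein-coding genes. Of the genes with a CpG promoter 4 of 40 were reduced (10.0%, 2.79% to 23.7%), against 13.9% of all such protein-coding genes, and of those without 5 of 38 (13.2%, 4.41% to 28.1%), against 5.62%. The class depended on the width read: over 500 bp on each side, 66 of 78 genes had a CpG promoter, among them all 9 reduced genes and 57 of the 69 others (82.6%), and 57.5% of all protein-coding genes had one. In this class 9 of 66 genes were reduced (13.6%, 6.43% to 24.3%), against 13.2% of all such protein-coding genes.

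**Figure D4:**
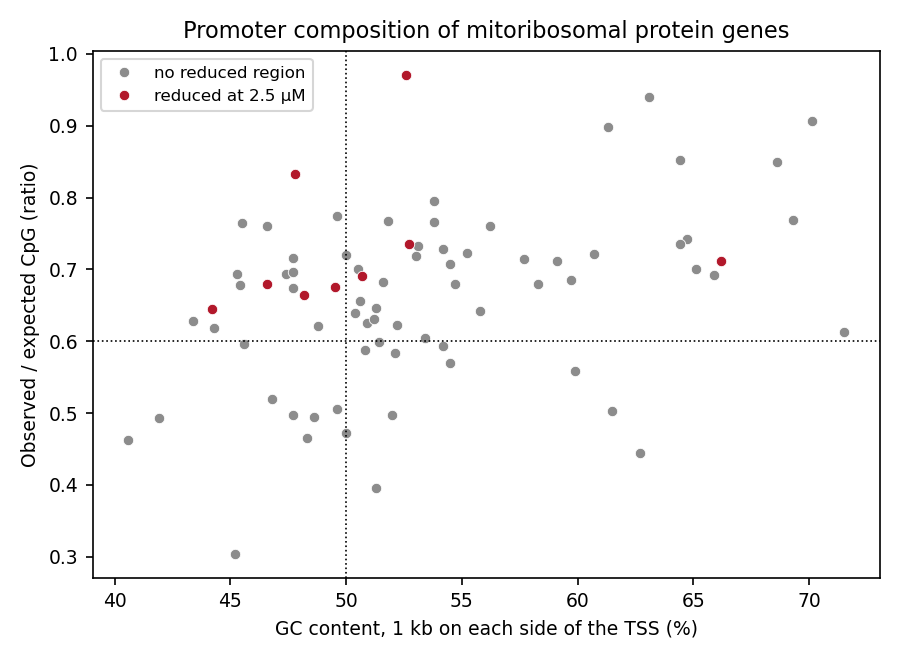
GC content (x axis, %) and observed over expected CpG ratio (y axis) in the 1 kb before and after the TSS, for the 78 mitochondrial ribosomal protein genes. Each point is a gene, red where reduced at 2.5 μM Tat-SID, and dotted lines mark the limits of a CpG promoter, 50% and 0.6; 8 of the 9 red points lie between 44.2% and 52.7% GC and MRPL14 at 66.2%, and all lie above a ratio of 0.6.

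Motif letters were counted in the 300-base promoters on both strands. The motifs were the core letters GCATGCGC for NRF1, a factor known for nuclear genes of mitochondrial function, CCGGAAG for the ETS family, which includes the mitochondrial gene activator GABP, AAGATGGC for YY1, CACGTG for the E-box that MYC and MAX bind, and GGGCGG for the SP and KLF families. The YY1 letters stood in 15 of 78 promoters (19.2%) against 3.02% of all protein-coding promoters, the ETS letters in 26 (33.3%) against 11.8%, and the NRF1 letters in 8 (10.3%) against 3.76%. E-box and SP/KLF letters were about as frequent as in all protein-coding promoters, with 7 (8.97%) against 8.32% and 45 (57.7%) against 52.1%. Among the 9 reduced genes, YY1 letters were found in 4, MRPL32, MRPL47, MRPS18B and MRPS30, and in 11 of the 69 others. NRF1 letters were found in 3 of the 9, MRPL32, MRPS18B and MRPS18C, and in 5 of the 69. ETS letters were found in 3 of the 9, MRPL33, MRPL47 and MRPS18C, and in 23 of the 69. SP/KLF letters were found in 3 of the 9, MRPL14, MRPL32 and MRPL51, and in 42 of the 69, and the E-box in MRPS18C and 6 of the 69. MRPL57 held none of the 5. Of the 1917 protein-coding genes reduced at 2.5 μM, 4.69% held YY1, 5.43% NRF1, 16.2% ETS, 7.98% E-box and 61.8% SP/KLF letters. A match of letters is not evidence of binding, and no differences in these counts were tested.

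**Figure D5:**
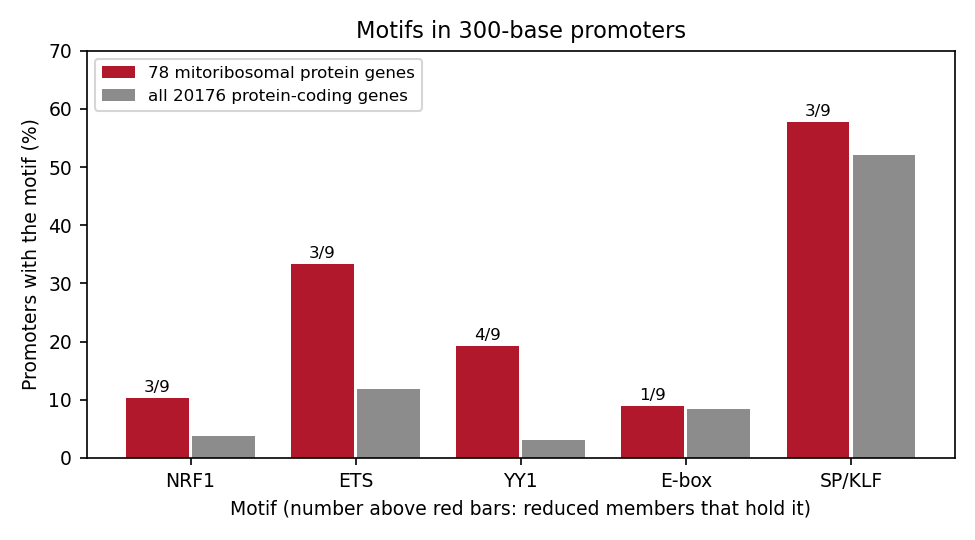
Share of 300-base promoters that hold each motif on either strand (y axis, %) for the 78 mitochondrial ribosomal protein genes (red) and all 20176 protein-coding genes (grey). Numbers above the red bars are the reduced genes that hold the motif, out of 9; the red bar is well above the grey for YY1, ETS and NRF1 and close to it for E-box and SP/KLF.

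Other genes of mitochondrial translation were counted as lists, to be read against the 9.5% of all protein-coding genes reduced at 2.5 μM and the 0.496% at 1 μM. Of 5 mitoribosomal proteins with other symbols, 2 were reduced at 2.5 μM: DAP3, a GTP-binding protein of the small subunit, with a region of 4249 bp, and PTCD3, an RNA-binding protein of the small subunit, with a region of 5949 bp that it shares with the RNA polymerase I gene POLR1A. Of 13 translation factors, MTRF1L, which encodes a release factor of mitochondria, was reduced, with a region of 4999 bp (7.69%, 95% interval 0.195% to 36.0%). Of 21 mitoribosome assembly factors, the GTPase gene NOA1 was reduced, with a region of 7949 bp that also covered the start of POLR2B (4.76%, 0.12% to 23.8%). Of 22 genes for mitochondrial aminoacyl-tRNA synthetases and the amidotransferase, 0 were reduced. This allows a share of up to 13.6% by the limit of 3 counts, and up to 15.4% by the exact 95% interval. Both limits lie above the 9.5% of all genes. All of these lists had 0 genes reduced at 1 μM.

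The products of the mitoribosome are assembled with nuclear-encoded subunits of the oxidative phosphorylation complexes, and 9 of 78 of those genes were reduced at 2.5 μM, the same count as for the mitoribosome (11.5%, 5.41% to 20.8%). The longest regions were at NDUFB3 and ATP5F1E, 5749 bp each, followed by NDUFV2 with 5099 bp, NDUFC1 with 4799 bp and NDUFA1 with 4699 bp. The region at NDUFA1 also covers the start of its divergent neighbour RNF113A. NDUFB5 was the sixth and rests on the region of MRPL47. The ribosomal protein genes of the cytosol had a higher share, 23 of 79 or 29.1% (19.4% to 40.4%). Its interval overlaps that of the mitochondrial ribosomal protein genes slightly, and the difference between the lists was not tested. None of the cytosolic or oxidative phosphorylation genes was reduced at 1 μM.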

How the data were processed

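The authors aligned 100-base single-end reads to hg19 (GRCh37) with Bowtie (version 1.0.0) and used SICER-df to list the regions of each treated library that differed from the untreated one. Reads that align to several places could be kept up to a limit under the stated settings, and the handling of duplicates was not given in the sources used here. The FDR threshold of the deposited lists is stated differently in the methods and in the results of the study. The deposited files hold only the chromosome, start and end position of each region, with no count, signal or score, so that no change in H3K4me3 could be estimated.

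Positions were converted to start from 1. TSS were the starts of genes in GENCODE release 44 mapped to GRCh37, and overlaps, of at least 1 bp, were computed with numpy 2.4.6, pysam 0.24.0 and pandas 2.3.3 under Python 3.11.15. They were checked with bedtools (version 2.31.1), which differed on 0 of the 1917 genes reduced at 2.5 μM, and tested on simulated data, in which 200 of 200 planted distances were recovered. Intervals were computed with scipy 1.17.1 and figures drawn with matplotlib 3.10.9. A count of 0 was given the limit of 3 counts of the total. Promoter sequences came from the GRCh37 reference, and of the 78 symbols 77 were curated in RefSeq. Subunit assignments, bacterial counterparts and gene lists were written from general knowledge, and MRPL47 and MRPL55 were moved to the genes with a bacterial counterpart, as relatives of proteins L29 and L31, after the counts were seen. The genes and lists were chosen with earlier results of these data known. Named genes were all reduced genes, those within 10 kb of a region by any transcript, the 3 nearest and 3 farthest of the others, genes sharing a region, and up to 6 reduced genes per list by region length. MRPS18A, MRPL42 and the genes with a divergent neighbour were named outside this rule, after their values were seen. Promoters shown by rule were those of reduced genes whose region held no other protein-coding TSS. Alternatives changed the window, the TSS, the minimum length, the gene set, the overlap between the doses and the definitions of neighbours and CpG promoters.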

Additional observations from a re-analysis of the deposited data

How the results depend on the processing

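The counts of 0 genes at 1 μM and 9 genes at 2.5 μM were the same with windows of 1 and 10 kb, with the region required to cover the TSS, with the TSS of the canonical or of every transcript, with regions of at least 1000 bp and with curated RefSeq symbols, and the same 9 genes were found each time. Several of these settings could not have changed a count. At 1 μM, narrower windows and curated symbols can only remove genes, so they had to give 0. The shortest region at 1 μM was 4149 bp, so the minimum length removed none there. At 2.5 μM the region covered the TSS of all 9 genes, so narrower windows had to return the same genes. Adding mitoribosomal proteins with other symbols gave 11 genes, by DAP3 and PTCD3. Taking every transcript together with a window of 10 kb added MRPL24. A count was held to have moved when it changed by more than 1.5 times, and a length when it changed at all. By this measure 4 of 28 alternatives moved a value, and some of the 28 could not have moved one. Requiring more overlap between the doses, for example, could only keep 0 genes on both lists. The values that moved were as follows. Instead of 17 genes, 27 had a protein-coding start on the other strand when either side was taken and 26 had a divergent neighbour by the starts of canonical transcripts (both added after the data were seen), 66 instead of 40 had a CpG promoter over 500 bp on each side, and the median region length was 4674 instead of 4599 bp over regions without another protein-coding TSS, which are those of MRPL33 and MRPS30. With the window placed at the start of the canonical transcript, which differs from the gene start by more than 50 bp in 25 genes, 22 instead of 15 promoters held YY1 letters (4.01% of all protein-coding genes), 32 instead of 26 ETS letters (14.0%) and 7 instead of 8 NRF1 letters (4.26%), also added after the data were seen. No stricter threshold was run, since regions carry positions alone. No paired analysis was possible because there was 1 library per condition and no test, and for the same reason no library was left out. The depth of the libraries, not analysed here, limits which regions were called.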
